A study of Mus musculus with 25 samples.

Results

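The genes described here are those of the pancreatic acinar cell: its digestive enzymes and their zymogens, other proteins of its secretory granule, endoplasmic reticulum proteins that fold them, and the transcription factors that define the cell. The 35 genes were chosen by symbol from textbook knowledge of the exocrine pancreas and not by a measured value, and each was looked up in the FPKM columns (fragment counts divided by transcript length and by library size) of 4 deposited tables of mouse islet RNA. Those tables hold 17885 genes in all. Of the 35 genes, 34 had a line in the HFD table, 33 in the WT table, 34 in the PBS table and 34 in the db table, and 32 had one in all 4. Ptf1a was not analysed in the HFD table, Prss1 and Ctrc not in the WT table, and Ctrc not in the PBS and db tables. The 22 digestive enzymes among them are 6 trypsinogens, 3 chymotrypsins, 4 elastases, 2 carboxypeptidases, 6 genes of lipid digestion and the ribonuclease Rnase1. Ctrc, counted here as a chymotrypsin, is annotated as a transcribed pseudogene in the mouse genome build used. The remaining genes are 7 granule and other secreted proteins, 4 transcription factors and 2 endoplasmic reticulum proteins.

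Acinar cells make most of the protein of the pancreas, store inactive zymogens in apical granules and release them into the ducts that lead to the gut. Their enzyme genes are driven by PTF1, a complex of the basic helix-loop-helix factor PTF1A with an E protein and RBPJ or its pancreatic paralogue RBPJL, together with the nuclear receptor NR5A2, while BHLHA15 (MIST1) shapes the secretory apparatus. Islets lie within acinar tissue and are freed from it by digestion and picking, so RNA of whole islets can carry acinar transcripts.

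Messenger RNA of islets was sequenced as paired ends on the BGISEQ-500, and every sample pooled 3 or more mice. Values were analysed for 19 libraries of 8 groups, of the 25 samples and 10 groups in the labels. Each of the groups flox/flox and BcBKO (HFD table, diet given for 3 months), CTR_PBS, KO_PBS and KO_REG3B-Fc (PBS table), and db_GFP and db_REG3B (db table) had 2 libraries, and the group WT had 5. The chow samples, 3 of each genotype, were not analysed here. BcBKO stands for ablation in beta cells with Pdx1-cre, in a study titled after BAF60C, the chromatin remodelling subunit encoded by Smarcd3. Pdx1 is also expressed in the progenitors from which acinar cells arise, which limits how far the cross can be read as specific to beta cells. The labels do not say which gene KO, which allele db or which vector, dose or duration the GFP, REG3B, REG3B-Fc and PBS groups refer to, and they give neither strain nor age. REG3B is a secreted lectin made by acinar cells under stress. Nothing in the labels says whether replicates came from separate isolations, so p-values measure the spread between these samples, which may be technical.

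Promoters are shown for 6 enzymes as examples, and no result below rests on them. Ctrb1, Cela2a, Prss2 and Cpa1 are abundant and were not called as departing from the middle enzyme in KO_PBS against CTR_PBS. The trypsinogens Prss1 and Prss3 were. Each run is the RefSeq GRCm38.p6 sequence from 250 bases before to 50 bases after the annotated start, on the coding strand. Capitals mark the E-boxes CACCTG and CAGCTG, the RBPJ-type box TTTCCCA and the TATA box TATAAA on either strand. The windows are chr8:111690961-111691260 (minus strand), chr4:141825956-141826255 (minus strand), chr6:41521526-41521825 (plus strand), chr6:30638968-30639267 (plus strand), chr6:41458680-41458979 (plus strand) and chr6:41377564-41377863 (minus strand), in the order printed.
Ctrb1: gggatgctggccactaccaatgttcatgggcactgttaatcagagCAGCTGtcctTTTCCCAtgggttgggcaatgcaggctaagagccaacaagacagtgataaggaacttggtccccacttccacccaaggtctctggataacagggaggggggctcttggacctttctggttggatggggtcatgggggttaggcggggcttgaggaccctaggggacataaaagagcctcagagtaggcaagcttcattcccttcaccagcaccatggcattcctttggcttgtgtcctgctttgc
Cela2a: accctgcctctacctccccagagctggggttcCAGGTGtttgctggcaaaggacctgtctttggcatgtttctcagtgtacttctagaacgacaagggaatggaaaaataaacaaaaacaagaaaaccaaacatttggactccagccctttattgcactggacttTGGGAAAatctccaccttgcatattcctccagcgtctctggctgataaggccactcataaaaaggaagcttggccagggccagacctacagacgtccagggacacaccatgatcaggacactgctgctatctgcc
Prss2: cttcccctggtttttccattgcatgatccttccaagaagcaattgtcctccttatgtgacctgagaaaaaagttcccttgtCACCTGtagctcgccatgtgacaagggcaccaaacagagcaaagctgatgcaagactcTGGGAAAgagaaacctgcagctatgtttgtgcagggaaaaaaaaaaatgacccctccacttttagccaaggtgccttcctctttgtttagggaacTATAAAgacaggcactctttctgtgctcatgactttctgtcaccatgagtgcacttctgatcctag
Cpa1: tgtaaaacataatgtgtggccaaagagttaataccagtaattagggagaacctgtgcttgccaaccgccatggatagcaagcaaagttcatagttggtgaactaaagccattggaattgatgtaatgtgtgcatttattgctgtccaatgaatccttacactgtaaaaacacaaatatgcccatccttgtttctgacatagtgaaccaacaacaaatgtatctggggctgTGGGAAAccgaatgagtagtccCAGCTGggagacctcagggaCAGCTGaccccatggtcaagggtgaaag
Prss1: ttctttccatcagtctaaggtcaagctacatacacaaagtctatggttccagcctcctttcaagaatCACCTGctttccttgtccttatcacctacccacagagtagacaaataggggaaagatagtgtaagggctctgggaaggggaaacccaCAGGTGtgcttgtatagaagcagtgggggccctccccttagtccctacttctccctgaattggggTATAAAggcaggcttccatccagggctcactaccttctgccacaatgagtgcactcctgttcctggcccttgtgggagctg
Prss3: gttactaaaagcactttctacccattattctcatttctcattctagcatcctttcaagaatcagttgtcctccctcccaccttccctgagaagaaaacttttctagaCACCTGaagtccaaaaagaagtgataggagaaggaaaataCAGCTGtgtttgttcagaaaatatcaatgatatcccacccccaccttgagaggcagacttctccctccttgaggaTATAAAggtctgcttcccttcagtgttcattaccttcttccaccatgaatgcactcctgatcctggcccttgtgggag

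A window of this kind was found for 28 of the 35 genes. A gene with more than 1 window was counted if any of them held the motif. The share over all windows counts each window, so the comparison favours the 28 genes. The E-box CACCTG, which PTF1A and other basic helix-loop-helix proteins bind, was found for 18 of the 28 genes and in 20.2% of all 32851 windows of the same length. CAGCTG was found for 6 of the 28 and in 16.3% of all windows. TTTCCCA, which RBPJ-type proteins bind, was found for 6 of the 28 (Cel, Cela2a, Cela3a, Cpa1, Ctrb1 and Prss2), all of them enzymes, and in 8.06% of all windows. Those 6 genes also had at least 1 of the E-boxes in the same window, a combination found in 2.67% of all windows. CAAGGTCA, a site type of NR5A2, was found for Cel and Klk1 and in 1.56% of all windows, and TATAAA for 10 of the 28 genes and in 13.6% of all windows. The windows of Prss1 and Prss3 held E-boxes and a TATA box but not TTTCCCA, while that of Prss2 held all 3 elements. TTTCCCA was also absent from the windows of Pnlip, Cela1, Cela3b and Cpb1. These are likewise abundant and were not called as departing in KO_PBS against CTR_PBS. Whether the motifs go with the changes was not tested. Both strands were searched, CAGCTG reads the same on both, none of the motifs contains another, and a match describes letters in a window, not binding.

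Acinar genes took a very different share of islet RNA from library to library. Of summed FPKM they made up 2.65 and 9.46% in the flox/flox pair, 3.97 and 3.90% in the BcBKO pair, and 33.0, 43.7, 45.4, 7.03 and 23.4% in the WT libraries. In the PBS table CTR_PBS stood at 15.9 and 15.7%, KO_PBS at 32.6 and 33.8%, and KO_REG3B-Fc at 13.3 and 13.4%. In the db table db_GFP stood at 0.151 and 0.149%, and db_REG3B at 0.0630 and 0.0647%. Replicates thus lay close together in every 2-library group except flox/flox, where replicate 2 held a far larger share than replicate 1, and the 5 WT libraries were spread widely. The tables were normalized separately, so the order between tables describes deposited values only. Ins1 and Ins2, the insulin genes that define beta cells, took 27.0 to 67.8% of summed FPKM outside the db table and 34.6 to 55.0% within it. In bulk RNA, fewer cells of a type and less RNA per cell cannot be told apart.

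**Figure D1:**
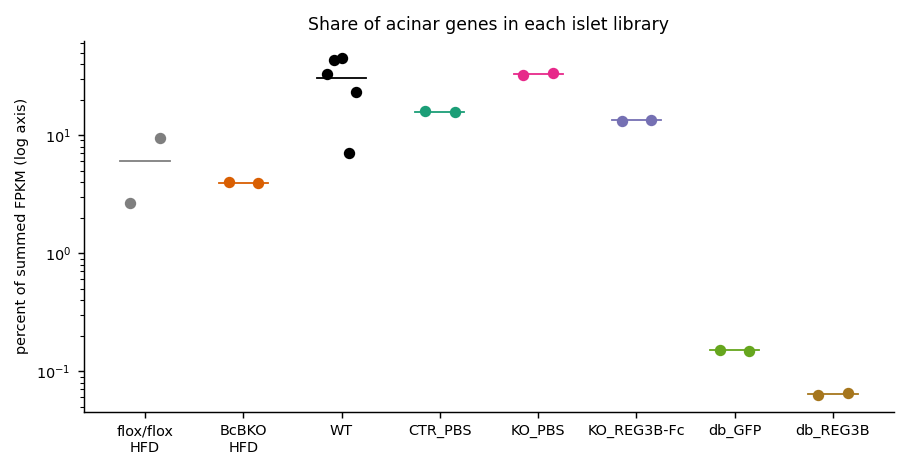
Share of summed FPKM taken by the acinar genes (percent, log axis) in each library (points), with the mean of each group as a line. The KO_PBS libraries (32.6 and 33.8%) lie above CTR_PBS and KO_REG3B-Fc, the db libraries lie far below all others, and flox/flox and WT are spread.

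Outside the db table the large enzyme classes kept similar parts of this share although its size varied widely. Smaller classes and single genes varied more. Trypsinogens made up 15.7 to 19.5% of the acinar FPKM, chymotrypsins 18.2 to 22.1%, elastases 19.1 to 25.1%, carboxypeptidases 6.79 to 10.3% and genes of lipid digestion 17.7 to 24.0%. Granule and other secreted proteins made up 6.09 to 9.99%, the ribonuclease 2.16 to 4.54% and the factors 0.0194 to 0.0834%. Cela3a stood at 0.73 FPKM or less on HFD and at 71.4 to 183 FPKM in the PBS table. Ctrb1, Prss2 and Cela2a or Clps were the most abundant 3, and together they held 35.2 to 39.3% of the acinar FPKM. The db libraries differed: trypsinogens made up 36.2 and 36.9% in db_GFP and 31.3 and 31.1% in db_REG3B, and lipid digestion only 7.26 to 9.63%. There Ctrb1 and Try5 led, followed by Prss3 in db_GFP and Cela2a in db_REG3B.

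The first comparison of the PBS table set KO_PBS against CTR_PBS. All 34 acinar genes tested were higher in KO_PBS, most of them by a similar factor, with a median log2 change of 0.96 on log2(FPKM + 1). Enzymes, granule proteins and folding proteins rose almost alike, the trypsinogen Prss1 rose far more, and the factors Nr5a2 and Bhlha15 rose least. By limma (empirical Bayes with trend, Benjamini-Hochberg over all genes, threshold 0.05), 34 of 34 were called higher, against 8.66% of the 11789 genes tested, and 0 lower, against 81.5%. The median of all genes tested fell by 0.44, and after each library was scaled so that its middle gene matched the geometric mean of the libraries (median scaling), the acinar median was 1.49, with 34 called higher against 24.6% of all genes (20% of all genes were called lower).

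Among the serine proteases, Prss2 (trypsinogen 2, a precursor of the enzyme that activates the other zymogens) measured 21125 and 22091 FPKM in CTR_PBS and 40725 and 42786 FPKM in KO_PBS (1.93-fold, log2 change 0.95 ± 0.045 (SE), adjusted p = 2.59e-07). Ctrb1 (chymotrypsinogen B) measured 37757 and 38212 FPKM in CTR_PBS and 69686 and 78717 FPKM in KO_PBS (log2 change 0.96, adjusted p = 8.20e-07). Cela1 (an elastase) went from 13494 and 14159 to 25125 and 27422 FPKM (log2 change 0.93, adjusted p = 7.77e-07). For each of these the groups were well apart. Prss1, another trypsinogen and the lowest of the 6 in this table, measured 3.17 and 3.20 FPKM in CTR_PBS and 21.3 and 22.6 FPKM in KO_PBS (6.89-fold, log2 change 2.45 ± 0.12, adjusted p = 3.81e-07). Cpa1 (carboxypeptidase A1, which trims the ends of peptides) went from 10460 and 10562 to 19249 and 19591 FPKM (log2 change 0.89, adjusted p = 1.81e-07).

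The genes of fat digestion rose by similar amounts. Pnlip (pancreatic triglyceride lipase) went from 15791 and 15498 FPKM in CTR_PBS to 30435 and 29509 FPKM in KO_PBS (log2 change 0.94). Clps (colipase, its cofactor) went from 14970 and 15806 to 28442 and 28425 FPKM (0.89), and Cel (bile salt-stimulated lipase) from 9886 and 9842 to 18822 and 17818 FPKM (0.89), with adjusted p from 2.29e-07 to 3.13e-07 for the 3. The whole group of 6 spanned only 0.87 to 0.96. Zg16, a lectin-like protein of the granule matrix, went from 3768 and 3717 to 7390 and 7645 FPKM (log2 change 1.01, adjusted p = 1.12e-07), and Klk1 (tissue kallikrein) from 1854 and 1838 to 3750 and 3462 FPKM (0.96, adjusted p = 2.52e-07). Among granule and other secreted proteins, Sycn (syncollin) rose least (0.71) and all 7 were called. The other 13 enzymes and granule proteins outside the trypsinogens spanned 0.84 (Cela2a) to 1.03 (Serpini2).

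The folding proteins followed the enzymes: Erp27 went from 74.2 and 72.2 FPKM in CTR_PBS to 145 and 147 FPKM in KO_PBS (log2 change 0.98), and Pdia2, a pancreas-enriched protein disulfide isomerase, from 273 and 273 to 527 and 546 FPKM (0.97). The factors were expressed at far lower FPKM. Rbpjl went from 15.2 and 14.0 to 33.8 and 31.1 FPKM (log2 change 1.10, adjusted p = 7.03e-07). Bhlha15 went from 31.1 and 29.0 to 43.8 and 42.6 FPKM (0.51, adjusted p = 2.43e-05), Ptf1a from 4.65 and 3.72 to 6.93 and 7.35 FPKM (0.66, adjusted p = 6.83e-05), and Nr5a2 from 1.48 and 1.59 to 2.17 and 2.35 FPKM (0.36, adjusted p = 0.000704). None of the 4 overlapped between the groups, although at such low levels of Nr5a2 and Ptf1a the pseudocount of 1 FPKM shrinks the change.

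Markers of other cells moved as well. The summed FPKM of 7 immune genes (Ptprc, Cd79a, Cd79b, Cd3e, Lyz2, Adgre1 and Csf1r, which mark leukocytes) was 19.1 and 18.1 in CTR_PBS and 147 and 142 in KO_PBS, with Cd3e listed at 0 in 1 CTR_PBS library, and that of 5 stellate cell genes 17.8 and 18.2 against 45.2 and 44.9. Duct cell markers went the other way, with sums of 592 and 565 against 192 and 187, and endothelial markers from 128 and 129 to 100.02 and 99.2. On this scale the median log2 change of all genes was -0.44, and the endothelial sum fell by no more than that. The insulin genes took 57.5 and 58.4% of summed FPKM in CTR_PBS but 38.9 and 38.2% in KO_PBS. The part of these cells in the acinar result was not tested. The authors' deposited table called 34 acinar genes higher, with a median log2 fold change of 1.45. Those calls rest on the same libraries, and the authors' calls over all genes were not counted.

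**Figure D2:**
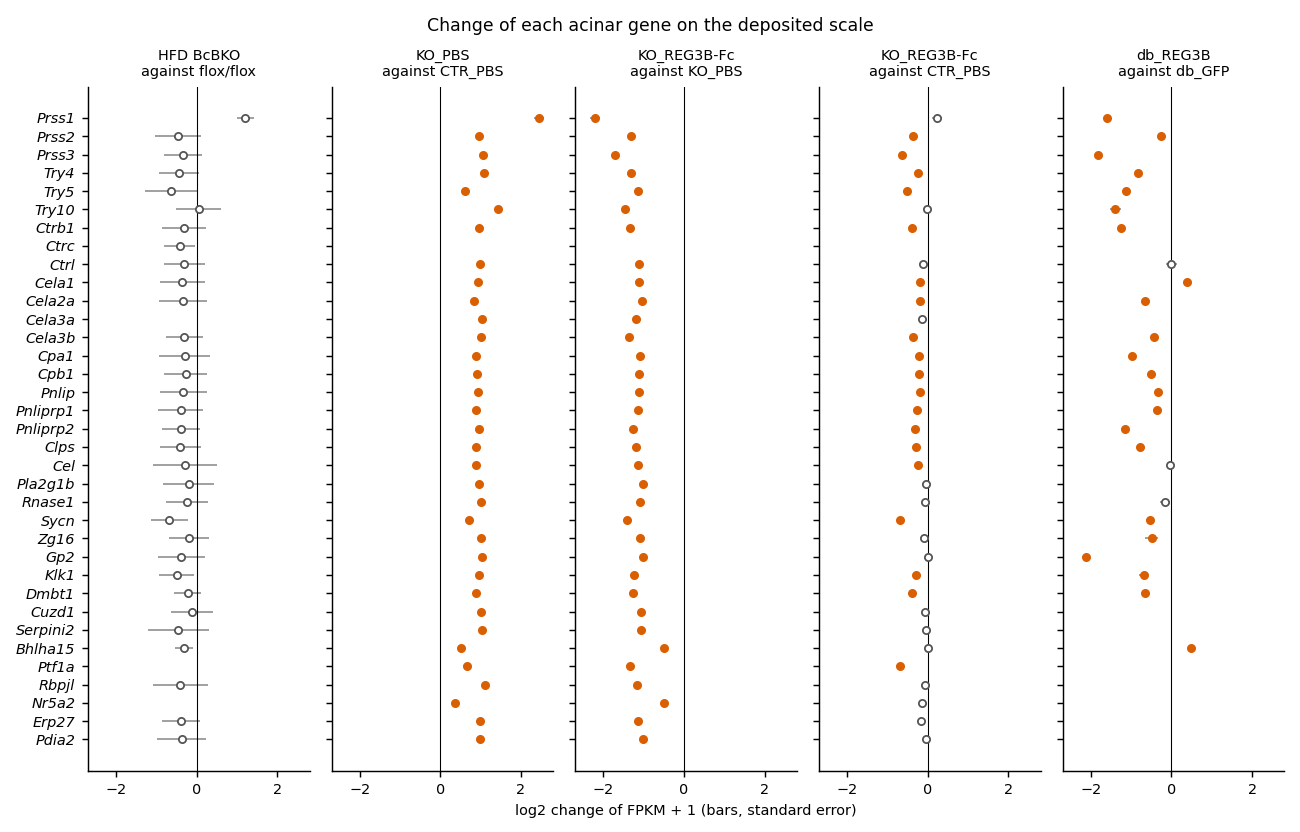
Change of each acinar gene on log2(FPKM + 1) in the 5 comparisons (points, with the standard error as bars), filled where limma's adjusted p was under 0.05 and open where it was not. All points lie right of 0 for KO_PBS against CTR_PBS and left of 0 for KO_REG3B-Fc against KO_PBS, with Prss1 farthest out in both.

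To see whether the acinar genes moved evenly, each library was divided by its median enzyme ratio to the geometric mean library, so that a gene's change is read against the middle enzyme. On this acinar scale 18 of the 21 enzymes tested in KO_PBS against CTR_PBS stayed within 0.2 log2 units of the middle one. By limma 5 genes departed upward, against 2.29% of all genes, and 4 downward, against 94.9%. Upward went Prss1 (1.60 ± 0.12, adjusted p = 1.73e-08), Try10 (0.50, adjusted p = 2.78e-07), Rbpjl (0.20, adjusted p = 0.0177), Try4 (0.13, adjusted p = 0.0182) and Prss3 (0.12, adjusted p = 0.0436). Downward went Bhlha15 (-0.41 ± 0.067, adjusted p = 6.39e-05), Try5 (-0.33, adjusted p = 1.13e-05), Nr5a2 (-0.24, adjusted p = 0.00776) and Sycn (-0.23, adjusted p = 0.000392). Rbpjl, the dedicated PTF1 subunit, thus rose with or slightly beyond the enzymes, while Bhlha15 and Nr5a2 lagged. Calls were lost without CTR_PBS replicate 2 for Try4 (0.15), Rbpjl (0.15) and Nr5a2 (-0.20), without KO_PBS replicate 1 for Rbpjl (0.14), Nr5a2 (-0.19) and Prss3 (0.11), without KO_PBS replicate 2 for Try4 (0.08) and Prss3 (0.13), and without CTR_PBS replicate 1 for Prss3 (0.09). Those of Prss1, Try10, Try5, Bhlha15 and Sycn held in all 9 alternatives tried.

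The trypsinogens lie in 1 cluster on chromosome 6 and differ most among themselves. In GRCm38.p6 the order is Try4 (41302272 to 41305533), Try5 (41311232 to 41314710), Try10 (41354105 to 41357944), Prss3 (41373759 to 41377613), the predicted trypsinogens Gm5771 (41392356 to 41397256) and Gm10334 (41442214 to 41446097), Prss1 (41458930 to 41463786) and Prss2 (41521776 to 41525079). Outside the db table Prss2, Try4 and Try5 carried nearly all of their FPKM and Prss1 was at most 22.6 FPKM. Gm5771 and Gm10334, which are not among the 35 genes and were named after their values were seen, moved with Prss1: Gm5771 measured 6.43 and 7.57 FPKM in CTR_PBS and 42.4 and 37.7 FPKM in KO_PBS (log2 change 2.36), and Gm10334 3.70 and 3.57 against 26.0 and 22.6 FPKM (2.45). These genes are close copies. The transcripts of Prss1 and Gm5771 were identical at 97.8% of aligned bases, those of Prss3 and Gm10334 at 98.9%, and those of Try4 and Try5 at 97.1%. Of all 50-base words of the Prss1 transcript 54.9% occurred in another gene, against 66.1% for Prss3, 65.6% for Try4, 53.9% for Try5, 40.8% for Try10 and 7.83% for Prss2. How the authors' counting divided reads between such copies is not given in the sources used here, so single values of Prss1, Prss3, Try4, Try5 and Try10 are uncertain.

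The copies reach into the promoters printed above. The windows of Prss1 and Gm5771 were identical at 97.5% of aligned bases and those of Prss3 and Gm10334 at 96.8%, while Prss1 and Prss2 shared 67.3% and Prss1 and Prss3 71.2%. Other members with a sizeable share of such words were Cela3a (34.2%), Cela3b (33.2%), Klk1 (28.4%) and Cela2a (25.6%), and their values carry the same doubt to a smaller degree. Of all genes, Ctrc shared the most words with Cela2a. The longest transcripts of Ctrb1, Cpa1, Pnlip, Clps and Cel shared none.

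**Figure D3:**
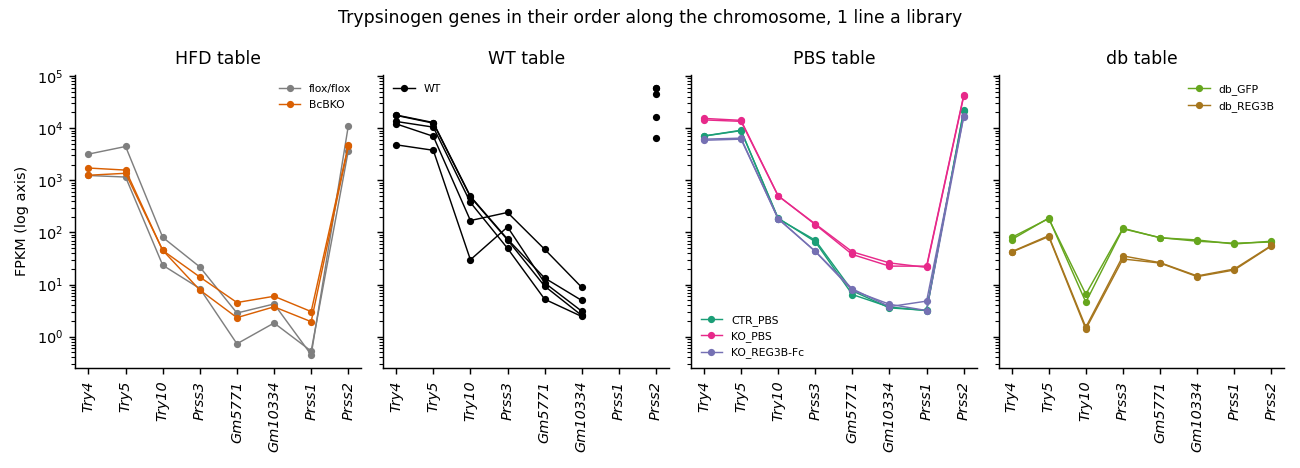
FPKM (log axis) of the trypsinogen genes in their order along chromosome 6, with 1 line for each library and 1 panel for each table. In the PBS panel the KO_PBS lines lie highest throughout and most so at Gm5771, Gm10334 and Prss1, and in the db panel the genes lie within a far narrower range than elsewhere.

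KO_REG3B-Fc against KO_PBS asked what REG3B-Fc changed in KO islets, and it shares the KO_PBS libraries with the comparison above. All 34 acinar genes were lower in KO_REG3B-Fc, with a median log2 change of -1.14. By limma 34 of 34 were called lower, against 6.97% of all genes tested, and 0 higher, against 86.2%. The median of all genes rose by 0.53, and with median scaling the acinar median was -1.77, with 34 called lower against 24.7% of all genes (20.2% of all genes were called higher). Single genes spanned -2.22 (Prss1) to -0.50 (Bhlha15), and apart from Prss1, Prss3, Try10, Sycn, Bhlha15 and Nr5a2 they lay between -1.37 (Cela3b) and -1.01 (Pla2g1b).

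Prss2 fell from 40725 and 42786 FPKM in KO_PBS to 16560 and 16768 FPKM in KO_REG3B-Fc (log2 change -1.32 ± 0.045, adjusted p = 5.08e-08), and Ctrb1 from 69686 and 78717 to 29383 and 28631 FPKM (-1.35, adjusted p = 1.56e-07). Cela1 fell to 11603 and 12380 FPKM (-1.13), Cpa1 to 9025 and 9028 FPKM (-1.11), Pnlip to 13970 and 13421 FPKM (-1.13), Clps to 12354 and 12567 FPKM (-1.19) and Cel to 8502 and 8133 FPKM (-1.14). In each case both treated libraries lay far below both KO_PBS libraries. Zg16 fell to 3537 and 3464 FPKM (-1.10) and Klk1 to 1535 and 1502 FPKM (-1.25). Prss1 fell from 21.3 and 22.6 to 3.17 and 4.81 FPKM (-2.22 ± 0.12, adjusted p = 4.13e-07), and its replicates in KO_REG3B-Fc differed by more than those of any other acinar gene (1.52-fold). 

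Erp27 fell to 59.6 and 71.3 FPKM (-1.15) and Pdia2 to 270 and 258 FPKM (-1.02). Among the factors, Rbpjl fell from 33.8 and 31.1 to 14.4 and 13.2 FPKM (-1.18, adjusted p = 3.69e-07) and Ptf1a from 6.93 and 7.35 to 2.08 and 2.33 FPKM (-1.35, adjusted p = 8.05e-07). Bhlha15 fell from 43.8 and 42.6 to 31.9 and 28.8 FPKM (-0.50, adjusted p = 2.21e-05) and Nr5a2 from 2.17 and 2.35 to 1.23 and 1.35 FPKM (-0.51, adjusted p = 6.04e-05). The immune sum, 147 and 142 FPKM in KO_PBS, was 25.8 and 26.1 FPKM in KO_REG3B-Fc, and the stellate sum 29.3 and 27.3 FPKM. Duct markers summed to 236 and 240 FPKM and endothelial markers to 129 and 119.8 FPKM. Both rose by no more than the median log2 change of all genes on this scale (0.53). The sum of Gcg, Sst and Ppy, genes of other islet hormones, went from 7801 and 8408 FPKM in KO_PBS to 21805 and 22553 FPKM in KO_REG3B-Fc. The insulin genes took 58.1 and 57.7% of summed FPKM, and the part of these cells in the result was not tested. The authors' deposited table called 34 acinar genes lower, with a median log2 fold change of -1.74, and its calls over all genes were again not counted.

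Against the middle enzyme, 18 of 21 enzymes stayed within 0.2 log2 units. By limma on the acinar scale 8 genes departed upward, against 96.8% of all genes, and 9 downward, against 1.37%. Lowest were Prss1 (-1.15 ± 0.12, adjusted p = 4.89e-07), Prss3 (-0.52, adjusted p = 4.83e-07), Ptf1a (-0.39, adjusted p = 0.000834), Try10 (-0.26, adjusted p = 0.00015) and Sycn (-0.21, adjusted p = 0.00091). The other 4, Cela3b, Ctrb1, Prss2 and Try4, departed by -0.17 to -0.11. Bhlha15 stood highest (0.67 ± 0.067, adjusted p = 4.23e-07), followed by Nr5a2 (0.24), Pla2g1b (0.19), Gp2 (0.18), Pdia2 (0.18), Cela2a (0.16), Rnase1 (0.12) and Cuzd1 (0.12). Of the 17, Prss2, Try4, Ctrb1, Cela2a, Pla2g1b, Rnase1, Cuzd1 and Nr5a2 lost the call when at least 1 library was left out, at values of -0.13 to -0.07 for the 3 lower ones and 0.06 to 0.20 for the 5 higher ones.

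**Figure D4:**
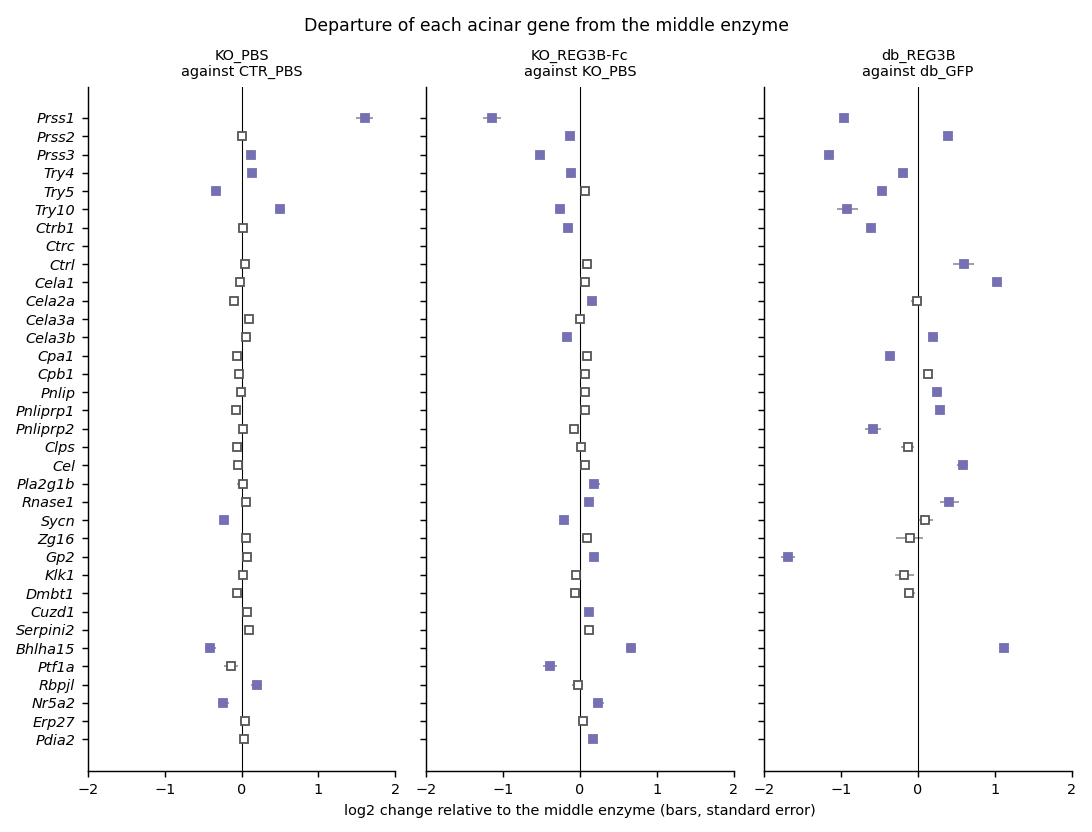
Change of each acinar gene relative to the middle enzyme (log2 units, bars show the standard error) in 3 comparisons, filled where limma's adjusted p was under 0.05. Most enzymes lie near 0 in the PBS table, Prss1 lies far out on opposite sides in the first pair of panels, and the db panel is spread, from Gp2 at -1.69 to Bhlha15 at 1.12.

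KO_REG3B-Fc against CTR_PBS, which shares libraries with both comparisons above, asked how far the treated KO islets stood from control. Acinar genes were slightly lower, with a median log2 change of -0.20. By limma 19 of 34 were called lower, against 2.87% of all genes, and 0 higher, against 16.8%. At an unadjusted p under 0.05, 21 passed in either direction, and so did 4209 of all 11789 genes tested. The 19 held 15 enzymes, 3 granule proteins (Sycn, Dmbt1 and Klk1) and 1 factor, Ptf1a. Without the filter on low values 11 were called lower, and 258 of all 17315 genes. With median scaling 23 were, against 5.3% of all genes called lower and 5.47% called higher.

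Sycn was lowest, with 7965 and 8234 FPKM in CTR_PBS and 5023 and 4998 FPKM in KO_REG3B-Fc (log2 change -0.69 ± 0.04, adjusted p = 9.69e-06). Ptf1a followed, with 4.65 and 3.72 against 2.08 and 2.33 FPKM (-0.69 ± 0.088, adjusted p = 0.00103), and Prss3, with 66.4 and 71.0 against 43.2 and 43.5 FPKM (-0.65, adjusted p = 3.02e-05). Groups did not overlap for these 3. Ctrb1 (-0.39, adjusted p = 0.00231), Prss2 (-0.37, adjusted p = 0.000717), Clps (-0.30, adjusted p = 0.0016), Klk1 (-0.28, adjusted p = 0.0031), Cel (-0.25, adjusted p = 0.00537), Cpa1 (-0.22, adjusted p = 0.00443), Cela1 (-0.21, adjusted p = 0.0291) and Pnlip (-0.19, adjusted p = 0.0134) were lower too. Cela1 and Pnlip lost the call without any 1 of the 4 libraries, and Cel without KO_REG3B-Fc replicate 2 (-0.21). Highest stood Prss1, with 3.17 and 3.20 against 3.17 and 4.81 FPKM (0.23, adjusted p = 0.207), where the groups overlap. It passed without KO_REG3B-Fc replicate 1 (0.47, adjusted p = 0.00655) and measured -0.005 without replicate 2.

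Other factors and folding proteins were not called: Rbpjl -0.08 (adjusted p = 0.418), Nr5a2 -0.15 (adjusted p = 0.160), Bhlha15 0.01 (adjusted p = 0.877), Erp27 -0.17 (adjusted p = 0.128), Pdia2 -0.05 (adjusted p = 0.385) and the granule protein Zg16 -0.10 (adjusted p = 0.103). Against the middle enzyme 16 of 21 enzymes stayed within 0.2 log2 units, 12 genes departed upward (86.6% of all genes did) and 7 downward (1.09% of all genes). Lowest was Ptf1a (-0.53, adjusted p = 0.000262), then Sycn (-0.44, adjusted p = 2.36e-05), Prss3 (-0.40, adjusted p = 7.13e-05) and Try5 (-0.27, adjusted p = 0.000308). Prss1 (0.45, adjusted p = 0.00321), Bhlha15 (0.27, adjusted p = 0.00299) and Gp2 (0.26, adjusted p = 0.000307) were highest. Without either CTR_PBS library 4 genes departed downward. Ptf1a was thus below the enzymes and Bhlha15 above them in the treated KO islets.

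In db islets, REG3B was compared with GFP at acinar levels far below those of the other tables. Of the 34 acinar genes listed, 25 passed the filter of at least 1 FPKM in at least 2 libraries, and Cela3a, Pla2g1b, Cuzd1, Serpini2, Ptf1a, Rbpjl, Nr5a2, Erp27 and Pdia2 did not. A gene can pass this filter through its higher group alone, so counts over the 25 describe those genes only. By limma 20, Gp2 and Zg16 included, were called lower, against 30.8% of all genes, and 2 higher, against 12.2%. The median log2 change was -0.65, and that of all 12507 genes tested was -0.06. All 6 trypsinogens fell, by 1.81 (Prss3) to 0.26 (Prss2) on the log2 scale, while Cela1 and Bhlha15 rose.

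Gp2 measured 6.71 and 5.89 FPKM with GFP, and 0.62 and 0.74 FPKM with REG3B (log2 change -2.12 ± 0.097), the lowest change of the 25. Gp2, which codes for a granule membrane protein, passed the filter through db_GFP alone and had to be lower in db_REG3B to be tested, so this value is a description. Prss1 fell from 62.1 and 59.9 to 19.0 and 19.9 FPKM (-1.60 ± 0.052, adjusted p = 3.21e-08), and Prss3 from 117 and 120.03 to 31.0 and 35.4 FPKM (-1.81, adjusted p = 4.78e-08). Ctrb1 fell from 477.8 and 465.6 to 194 and 198 FPKM (-1.26, adjusted p = 2.07e-08). These groups did not come near each other. Prss2, far above Prss1 in the HFD and PBS tables, was near its level here, with 65.6 and 67.9 against 55.0 and 56.2 FPKM (-0.26, adjusted p = 0.00147).

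Cpa1 fell from 29.4 and 29.9 to 13.8 and 15.2 FPKM (-0.99, adjusted p = 2.07e-06), Clps from 39.3 and 36.0 to 23.5 and 19.8 FPKM (-0.77, adjusted p = 5.68e-05) and Pnlip from 9.50 and 9.61 to 7.22 and 7.49 FPKM (-0.34, adjusted p = 0.00316). Klk1 fell from 4.55 and 4.52 to 2.01 and 2.96 FPKM (-0.68, adjusted p = 0.00177). Cel, with 13.4 and 13.5 against 12.2 and 14.2 FPKM, overlapped between groups (-0.03, adjusted p = 0.796), as did Ctrl (-0.01, adjusted p = 0.969) and Rnase1 (-0.16, adjusted p = 0.322). Of the other enzymes, Pnliprp2 (-1.15), Try10 (-1.40), Try5 (-1.13), Try4 (-0.84), Cela2a (-0.67), Cpb1 (-0.50), Cela3b (-0.43) and Pnliprp1 (-0.35) fell, and so did the granule proteins Dmbt1 (-0.65) and Sycn (-0.53). Zg16 went from 2.00 and 1.84 to 0.72 and 1.5 FPKM (-0.49, adjusted p = 0.0322), a call lost without db_GFP replicate 1 (-0.45) or replicate 2 (-0.53), without db_REG3B replicate 1 (-0.22) and with median scaling (-0.45). Only 1 db_REG3B library reached 1 FPKM, so Zg16 met the filter through db_GFP, its higher group, which limits its call.

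Cela1 rose from 41.2 and 40.0 to 51.9 and 54.5 FPKM (0.38 ± 0.049, adjusted p = 0.000225), and Bhlha15 from 31.4 and 29.9 to 40.7 and 45.4 FPKM (0.48 ± 0.062, adjusted p = 0.000239). Both groups were separate in each. When libraries were scaled to equal sums over all genes outside the 35, Cela1 was no longer called (0.05, adjusted p = 0.351) and Bhlha15 still was (0.14, adjusted p = 0.0394), on a scale that called 2.37% of all genes higher and 83% lower. The untested factors were near 0: Ptf1a at 0.45 and 0.13 FPKM in db_GFP and 0.05 and listed at 0 in db_REG3B, Rbpjl at 0.10 and 0.14 against 0.08 and listed at 0, and Nr5a2 at 0.83 and 0.87 against 0.25 and 0.14 FPKM. Erp27 stood at 0.58 and 1.37 against 0.42 and 0.34 FPKM, and Pdia2 at 0.42 and 0.88 against 0.86 and 1.24 FPKM, where the groups overlap.

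The acinar genes did not move evenly in db islets. Against the middle enzyme only 5 of 19 enzymes stayed within 0.2 log2 units, 9 of the 25 genes departed upward (79.8% of all genes did) and 9 downward (9.73% of all genes). All trypsinogens but Prss2 departed downward, from Prss3 (-1.16, adjusted p = 3.06e-06) to Try4 (-0.19, adjusted p = 0.0148), and so did Gp2 (-1.69, with the limit given above), Ctrb1 (-0.61, adjusted p = 4.26e-06), Pnliprp2 (-0.59) and Cpa1 (-0.36). Bhlha15 (1.12, adjusted p = 2.71e-06), Cela1 (1.02, adjusted p = 1.80e-06), Ctrl (0.59), Cel (0.58) and Prss2 (0.39) were among those above it, with Rnase1 (0.41). The call of Try4 was lost without db_GFP replicate 1 (-0.22) or replicate 2 (-0.07), that of Rnase1 without db_REG3B replicate 2 (0.19), and that of Cela3b (0.20) without db_REG3B replicate 1 (0.047). When the summed enzyme FPKM set the scale, Cpa1 was no longer called (-0.082, adjusted p = 0.149), and the sign of Try4 turned (0.092).

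Summed markers of stellate, duct, immune and endothelial cells were lower in db_REG3B, together with the acinar genes, on descriptive values. So was the sum of Gcg, Sst and Ppy, at 72468 and 74061 FPKM in db_GFP against 46226 and 47074 FPKM in db_REG3B. Beta cell markers were higher, with sums of 379344 and 384904 against 698161 and 719265 FPKM. Stellate markers summed to 977 and 964 FPKM in db_GFP and 177 and 189 FPKM in db_REG3B, duct markers to 1424 and 1424 against 613 and 652 FPKM, immune markers (6 of the 7 listed) to 502 and 511 against 222 and 227 FPKM, and endothelial markers to 53.8 and 50.7 against 24.1 and 25.7 FPKM. The insulin genes took more of the summed FPKM in db_REG3B (54.7 and 55.0%) than in db_GFP (at least 34.6%). Their part in the acinar result was not tested. The authors' deposited table called 2 acinar genes higher and 15 lower, with a median log2 fold change of -0.74. Its calls over all genes were not counted.

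On HFD, BcBKO was compared with flox/flox. No acinar gene was called: by limma 0 of 32 passed in either direction, against 0.00865% of all genes higher and 0% lower. At an unadjusted p under 0.05, 1 acinar gene passed, Prss1, and so did 427 of all 11560 genes tested. Prss1 had passed the filter through its higher group alone. The authors' deposited table also called 0 acinar genes, and its calls over all genes were not counted. The median log2 change was -0.34, and the spread between the flox/flox libraries was larger. Of 34 genes, 33 were higher in flox/flox replicate 2 than in replicate 1, with a median ratio of 2.94, from 0.849 (Prss1) to 5.94 (Rbpjl). In BcBKO that ratio was 0.877. Without flox/flox replicate 2 the median change was 0.45 and without replicate 1 it was -1.10.

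Prss2 stood at 3689 and 11021 FPKM in the flox/flox pair, and at 4677 and 4534 FPKM in the BcBKO pair (log2 change -0.47 ± 0.56, adjusted p = 1.000). Ctrb1 measured 5631 and 15202 against 8013 and 6929 FPKM (-0.31 ± 0.55), Cela1 1501 and 4667 against 2106 and 2017 FPKM (-0.36), Cpa1 1599 and 5996 against 2356 and 2689 FPKM (-0.30), and Pnlip 2102 and 6746 against 2921 and 3052 FPKM (-0.33). The BcBKO libraries lay between the flox/flox pair in all 5. The same held for Clps (-0.41), Cel (-0.28), Zg16 (-0.19), Erp27 (-0.39), Pdia2 (-0.38) and Rbpjl (-0.40), each with adjusted p = 1.000. Klk1, with 489 and 983 against 651 and 369 FPKM (-0.50), and Bhlha15, with 26.4 and 37.1 against 21.7 and 28.7 FPKM (-0.31), overlapped in another order and had the same adjusted p.

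Prss1 was at 0.53 and 0.45 FPKM in the flox/flox pair, but at 3.03 and 1.94 FPKM in the BcBKO pair (log2 change 1.21 ± 0.20, adjusted p = 1.000). It passed the filter through BcBKO alone, so it had to be higher there to be tested, and neither its change nor its order sets it apart from the other genes. It was the single acinar gene with both BcBKO libraries above both flox/flox libraries, while 25.3% of all genes had that order, and Sycn (1965 and 4822 against 1934 and 1898 FPKM, log2 change -0.68 ± 0.46, adjusted p = 1.000) was the single one with the opposite order, found in 4.85% of all genes. Nr5a2, at 0.36 and 1.36 against 0.67 and 0.65 FPKM, and Cela3a, at most 0.73 FPKM, did not pass the filter. Gm5771 (0.73 and 2.84 against 4.52 and 2.32 FPKM) and Gm10334 (1.83 and 4.24 against 5.96 and 3.74 FPKM) overlapped between groups. Against the middle enzyme the estimates of 18 of 21 enzymes lay within 0.2 log2 units. On that scale 0 acinar genes were called, against 0.00865% of all genes higher and 0% lower. The median standard error of these enzymes was 0.76, against 0.050 for KO_PBS against CTR_PBS. With errors this far above the band of 0.2, these counts cannot show whether the enzymes moved evenly. Immune markers (6 of the 7 listed) summed to 24.9 and 37.7 against 34.5 and 31.3 FPKM, and stellate markers to 29.7 and 65.4 against 45.6 and 75.4 FPKM.

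The 5 WT libraries show how far acinar RNA can vary within 1 label. Of the 33 acinar genes listed there, 32 were lowest in replicate 4, the exception being Prss3, and 29 had replicate 5 between replicate 4 and the other 3. The median ratio of the highest to the lowest library was 7.37 over the 20 enzymes listed. Prss2 measured 44980, 57896, 59312, 6553 and 16640 FPKM in replicates 1 to 5, Ctrb1 66438, 88580, 89007, 12087 and 31546 FPKM, and Cpa1 17343, 22272, 22722, 3083.5 and 12983 FPKM. Replicates 1 to 3 lie close together in each of these, with replicate 4 far below.

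Lipid genes showed the same order: Pnlip measured 29899, 37162, 38725, 4642 and 13010 FPKM, Clps 30012, 41533, 42392, 5144 and 13709 FPKM, and Cel 20035, 24704, 25104, 1949 and 8485 FPKM. Cela1 measured 26619, 35172, 34901, 4038 and 12155 FPKM, Zg16 6887, 8961, 9899.7, 2002 and 5960 FPKM, and Klk1 2429, 3382, 3225, 931 and 1906 FPKM. Cela3a had the widest range, with 142, 199, 204, 1.45 and 3.97 FPKM, and its transcript shares words with that of Cela3b. Pla2g1b, a secreted phospholipase, broke the order with 491, 691, 683, 401 and 1531 FPKM, as did Prss3 with 49.6, 74.2, 72.1, 127 and 242 FPKM, and both were highest in replicate 5.

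Among the WT factors, Bhlha15 measured 50.5, 57.3, 56.9, 18.5 and 34.1 FPKM and Rbpjl 31.2, 39.6, 41.1, 2.35 and 10.4 FPKM, in the order of the enzymes. Ptf1a did not follow them, with 5.21, 8.90, 7.06, 2.53 and 9.18 FPKM, and Nr5a2 stayed low at 1.97, 2.11, 1.74, 0.81 and 1.48 FPKM. Erp27 measured 153, 207, 208, 26.5 and 73.2 FPKM and Pdia2 495, 593, 606, 105 and 345 FPKM. Beta cell markers summed to 722061 FPKM in replicate 4 and 347063 to 500927 FPKM in the others. Immune markers summed to 91.0, 141, 63.4, 26.5 and 18.7 FPKM, with Cd79b and Cd3e listed at 0 in replicate 4. The labels give no batch that separates replicates 4 and 5 from the others.

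Acinar factors were set against enzymes as summed factor FPKM per 1000 summed enzyme FPKM. CTR_PBS had ratios of 0.254 and 0.230, KO_PBS of 0.224 and 0.207, KO_REG3B-Fc of 0.290 and 0.266, and WT of 0.209 to 0.331. With Bhlha15 included, the ratio was thus lowest where enzymes were highest, in the PBS table and in WT alike. On HFD, where Ptf1a was not analysed, flox/flox had 0.929 and 0.547, and BcBKO 0.593 and 0.832. In db islets the ratio reached 24.5 and 23.4 with GFP, and 60.96 and 64.4 with REG3B. As a difference of mean log2(FPKM + 1) between factors and enzymes, db_GFP stood at -3.15 and db_REG3B at -2.63, but with a pseudocount of 0.1 the order turned (-4.25 and -4.33).

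Bhlha15 accounted for most of this contrast. It measured 18.5 to 57.3 FPKM over all 19 libraries, whereas enzyme sums ran from 673 FPKM in a db_REG3B library to 511235 FPKM in a WT library. Bhlha15 is also active in other secretory cells, and its FPKM in db_GFP islets (31.4 and 29.9) stood at the level of CTR_PBS islets (31.1 and 29.0) whose enzyme sums were 206883 and 210005 FPKM. Without Bhlha15 the ratio was 0.0781 to 0.155 in all libraries outside the db table, 1.03 and 0.860 in db_GFP, and 0.565 and 0.198 in db_REG3B. It was then no longer lowest where enzymes were highest. In WT the lowest value, 0.0781, was that of replicate 4, which had the lowest enzyme sum. In the PBS table CTR_PBS had 0.103 and 0.0920, KO_PBS 0.111 and 0.101, and KO_REG3B-Fc 0.103 and 0.0983. Rbpjl alone stood at 0.0322 to 0.140 per 1000 enzyme FPKM in all libraries outside the db table and at 0.119 or less within it, a range far narrower than that of the enzyme sums. In the db libraries that figure rests on at most 0.14 FPKM of Rbpjl.

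**Figure D5:**
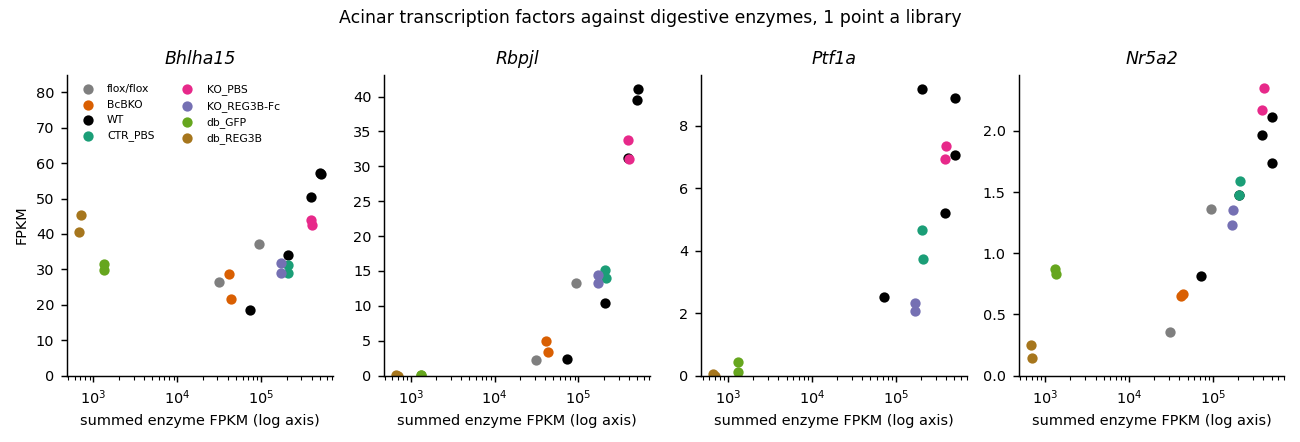
FPKM of the 4 acinar transcription factors (linear axes) against the summed enzyme FPKM (log axis), with 1 point for each library, coloured by group. Rbpjl is highest (41.1 FPKM) in the WT library with the largest enzyme sum, while Bhlha15 stands at 29.9 to 45.4 FPKM in the 4 db libraries with the lowest enzyme sums.

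Of 20 other acinar genes counted beside the 35, 18 were tested in KO_PBS against CTR_PBS, of which 17 were called higher (8.66% of all genes were) and 1, Rab3d, lower (81.5% of all genes). The list includes Gm5771 and Gm10334. Dpep1, 1 of the 17, reached 1 FPKM only in the KO_PBS libraries (1.49 and 1.55), against at most 0.93 FPKM elsewhere in the PBS table. It passed the filter through KO_PBS alone and had to be higher there to be tested. Its calls, higher here and lower in KO_REG3B-Fc against KO_PBS, are thus descriptions. Rab3d, a small GTPase of secretory granules that other cells also express, went from 61.3 and 60.1 to 51.2 and 51.1 FPKM (-0.24, adjusted p = 0.000307), and with median scaling it was called higher (0.28). In KO_REG3B-Fc against KO_PBS 17 were lower (6.97% of all genes were) and Rab3d higher (0.30, with 86.2% of all genes), again turned by median scaling (-0.32). In db islets, of 12 tested, 8 were lower and 3 higher (Rab3d, Gnmt and Amy2b), against 30.8% and 12.2% of all genes. Amy2b measured 0.15 and 0.37 FPKM in db_GFP and 1.25 and 1.09 FPKM in db_REG3B. It passed the filter through db_REG3B alone and had to be higher there to be tested, so its call is a description. On HFD 0 of 17 were called, against 1 of all 11560 genes.

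The pancreatic amylase gene Amy2a5 did not follow the enzymes between libraries. In WT replicates 1 to 5 Amy2a5 measured 77954, 96304, 102301, 73.2 and 88834 FPKM, so that replicate 4 was lower by far more than for any of the 35 genes. The other amylase genes on the list did not share so deep a drop. Amy2b measured 41.6, 49.8, 58.9, 149 and 95.2 FPKM in these libraries, highest in replicate 4, and Amy1 15.25, 17.8, 19.7, 5.90 and 20.7 FPKM. In relation to 100 FPKM of the 35 genes, Amy2a5 stood at 18.8, 17.7, 18.6, 0.0932 and 40.4 FPKM in those libraries, at 23.5 to 29.1 in the PBS table, at 1.27 to 2.09 on HFD and at 4.02 to 8.06 in db islets. Amy2a5 shares 57.2% of its 50-base words with other genes, chiefly Amy2a4, so its value is uncertain in the same way as those of the trypsinogens. Within the PBS table Amy2a5 rose from 57486 and 58453 to 102162 and 101175 FPKM (0.81, adjusted p = 4.09e-07) and fell to 53327 and 53100.02 FPKM (-0.93, adjusted p = 1.85e-07).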

How the data were processed

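Values came from 4 tables of islet RNA-seq covering 19 libraries. Per the file headers these hold FPKM per gene and library, and the HFD table also TPM, which the authors deposited beside them and which served as an alternative. The genome build named is GRCm38.p6, per the submitters' processing notes, and the aligner and counter are not given in the sources used here. The authors' deposited log2 fold changes and adjusted p-values are quoted only where named. Depth is unknown because the deposited FPKM do not give counts.

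FPKM were taken as log2(FPKM + 1), which understates changes of low genes, keeping a gene that reached 1 FPKM in 2 or more of a table's libraries. All groups of a table entered 1 fit with limma 3.58.1 (R 4.3.3, empirical Bayes with trend, Benjamini-Hochberg over all genes tested, two-sided, threshold 0.05), tested on simulated data. The same fit was repeated after scaling each library to its median enzyme. Shares, ratios, promoter motifs and shared 50-base words were computed in Python 3.11.15 with pandas 2.3.3 and numpy 2.4.6. Alternatives changed the filter, pseudocount (0.1), scaling, libraries and replicate block. All 35 genes are reported by role, 16 of them and the extremes of each comparison library by library. The genes and lists were chosen with earlier results of these data known. Shares and factor ratios are given as a description, with no test. For the other acinar genes, the comparison of KO_REG3B-Fc with CTR_PBS is not reported here.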

Additional observations from a re-analysis of the deposited data

Results flagged for a closer look

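Pla2g1b, a secreted phospholipase, measured 1530.9 FPKM in WT replicate 5. Its distance to the next library, as a share of the range over the 5 libraries, was 0.744, above Dixon's 95% critical value of 0.71. It was the single one of 35 such tests to pass, and chance flags about 1 in 20 groups.

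Cela1 and Bhlha15 moved in opposite directions under the REG3B treatments. Cela1 changed by -1.131 on the log2 scale with REG3B-Fc in KO islets and by 0.381 with REG3B in db islets, and Bhlha15 by -0.497 and 0.476. Both treated libraries lay below both KO_PBS libraries in the PBS table, and above both db_GFP libraries in the db table. The difference itself was not tested, since the treatments and tables are separate, and the Cela1 call in db islets is lost when the FPKM outside the acinar genes are set equal (0.047).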

How the results depend on the processing

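Of 139 single-gene results, 116 were called, 30 of those lost the call in at least 1 alternative, 1 turned direction, and 5 uncalled ones passed in an alternative. With the replicate number as a block, 34 acinar genes were again called higher for KO_PBS against CTR_PBS, with a median of 0.96, 6 instead of 5 departed upward there, and none of 164 results changed its side of the threshold or moved a count by over 1.5 times. The differences between same-numbered replicates correlated at 0.669 on HFD and at -0.0499 to 0.0472 in the other tables, and no label says that a number pairs samples.

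On HFD, leaving out 1 library gave medians from -1.10 to 0.45, and ranges that cross 0 for Prss2 (-1.26 to 0.32), Ctrb1 (-1.03 to 0.40), Cela1 (-1.18 to 0.46), Cpa1 (-1.25 to 0.65), Pnlip (-1.18 to 0.51), Clps (-1.10 to 0.28), Cel (-1.45 to 0.88), Zg16 (-0.93 to 0.54), Klk1 (-1.003 to 0.003), Rbpjl (-1.47 to 0.67), Erp27 (-1.10 to 0.31) and Pdia2 (-1.31 to 0.56), and 0 to 1 genes departing upward from the middle enzyme.

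Median scaling and rest scaling (equal sums outside the 35 genes) moved the median to 1.49 and 1.45 for KO_PBS against CTR_PBS, to -1.77 and -1.62 for KO_REG3B-Fc against KO_PBS, to -0.30 and -0.19 for KO_REG3B-Fc against CTR_PBS, and to -0.59 and -0.93 in db islets, where rest scaling called 1 gene higher. A pseudocount of 0.1 gave -0.21 for KO_REG3B-Fc against CTR_PBS and -0.78 in db islets, and no filter -0.50 there. Without the filter 11 acinar genes were called lower for KO_REG3B-Fc against CTR_PBS, and 258 of all 17315 genes. Upward from the middle enzyme, 3 acinar genes (KO_PBS against CTR_PBS) and 5 (KO_REG3B-Fc against KO_PBS) then departed, and 585 and 13663 of all genes. With only the 4 libraries compared, 3 departed upward for KO_PBS against CTR_PBS, and with summed enzyme FPKM as the scale 4 departed downward for KO_REG3B-Fc against CTR_PBS, and Try4 turned to 0.092 in db islets. Median scaling turned Bhlha15 for KO_REG3B-Fc against CTR_PBS to -0.085 and Cel in db islets to 0.039.

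Leaving out 1 library gave medians of 0.95 to 0.98 and 3 to 4 genes departing upward for KO_PBS against CTR_PBS, and medians of -1.17 to -1.13 for KO_REG3B-Fc against KO_PBS. For KO_REG3B-Fc against CTR_PBS it gave medians of -0.24 to -0.20, 0 to 1 genes higher, 4 to 5 departing downward, Prss1 at -0.005 to 0.47 and Bhlha15 at -0.056 to 0.085. In db islets it gave medians of -0.68 to -0.54 and Cel at -0.134 to 0.076.

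Leaving Ins1 and Ins2 out of the total raised the mean share of acinar genes to 15.3% in flox/flox, 10.8% in BcBKO, 46.4% in WT, 37.5% in CTR_PBS, 54.0% in KO_PBS, 31.7% in KO_REG3B-Fc, 0.230% in db_GFP and 0.141% in db_REG3B. With a pseudocount of 0.1 the mean log2 level of the factors minus that of the enzymes was -6.70, -6.75, -8.65, -8.96, -8.72, -4.25 and -4.33 in flox/flox, BcBKO, CTR_PBS, KO_PBS, KO_REG3B-Fc, db_GFP and db_REG3B, where a pseudocount of 1 gave -6.36, -6.38, -8.41, -8.78, -8.40, -3.15 and -2.63, so the order of the db groups turned. The sequencing depth is unknown, so no detection limit could be given for genes near 0 FPKM.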
